A study of Mus musculus with 24 samples.

Results

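The genes described here are 39 mouse genes of homologous recombination and DNA crosslink repair that act downstream of the Fanconi core complex. They were taken by symbol from the deposited table of 26267 genes. All 39 had a row of their own, and all 39 were among the 12628 genes tested, each of which had 2 or more libraries with a normalized count of 10 or higher. RNA came from sorted mouse LSK cells, which are bone marrow cells without lineage markers that carry Sca-1 and Kit and include the blood stem cells. The 24 libraries fell into 8 groups by genotype and treatment. The groups given PBS, the vehicle, were WT (4 libraries), FancgKO without a working Fancg gene (4), Mdm4Tg with an Mdm4 transgene (3) and FancgKO_Mdm4Tg with both changes (3). The groups given poly(I:C), an artificial mimic of viral RNA that sets off an interferon response, were WT (3), FancgKO (3), Mdm4Tg (2) and FancgKO_Mdm4Tg (2). The labels do not give the dose, the time after injection, the age, the promoter of the transgene or the exons removed from Fancg. They do not say whether libraries come from separate animals, so p-values measure the spread between these libraries, which may be technical.

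The Fanconi pathway removes crosslinks that tie the strands of DNA together and block replication. Its core complex attaches ubiquitin to FANCD2 and FANCI, nucleases then cut beside the crosslink, translesion polymerases copy past the remnant, and the broken sister is rebuilt by homologous recombination. Blood stem cells depend on this pathway, and its loss in people causes Fanconi anaemia with bone marrow failure.

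The libraries held 807686 to 8229715 reads. Fancg was at 26.1 to 71.4 in the FancgKO and FancgKO_Mdm4Tg libraries and at 41.3 to 78.4 in the others, so its row did not separate the genotypes. Whether the reads that remain lie outside the removed exons was not tested. Mdm4 was at 5023 to 7105 in the transgenic libraries and at 750.9 to 1293 in the others. Library titles end in d for replicate numbers 6 and 7 and in d_2 for numbers 2, 4 and 8. The labels do not say what these endings stand for, and ending and replicate number cannot be told apart. The ending separated the libraries strongly. In a limma fit with 8 group means and the ending, 45.3% of all genes differed between the endings with Benjamini-Hochberg adjustment (23.6% higher and 21.7% lower in d_2). Titles ending in d_2 made up 8 of 14 PBS and 4 of 10 poly(I:C) libraries, so results are also given with the ending in the fit. Xist was above 100 in 6 libraries, all with titles ending in d. These were replicates 6 and 7 of FancgKO with PBS, of FancgKO with poly(I:C) and of WT with poly(I:C). No WT library with PBS and no library with the Mdm4 transgene was among them, so high Xist was uneven over treatment and genotype.

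Promoter sequence is shown for 2 of the 3 genes that rose with poly(I:C), and for Bard1 as the one member with both cell cycle motifs. RefSeq (GRCm38.p6, the same build as the mm10 of the deposited data) gave a start site for 28 of the 39 members, and Rbbp8 was not among the 28. Printed here is the longest stretch of the 250 bases before the start that lies outside every annotated exon. Capitals mark 3 motifs searched on both strands. These are the E2F words TTTCGCGC, TTTGGCGC, TTTCCCGC and TTTGCCGC, the CHR words TTTGAA or TTCGAA, and the CCAAT box, which reads ATTGG on the other strand. Blm lies on the minus strand at chr7:80535120-80535248, Rad54l on the minus strand at chr4:116123691-116123839 and Bard1 on the minus strand at chr1:71103147-71103222.
Blm: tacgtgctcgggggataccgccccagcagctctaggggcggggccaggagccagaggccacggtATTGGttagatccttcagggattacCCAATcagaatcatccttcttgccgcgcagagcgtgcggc
Rad54l: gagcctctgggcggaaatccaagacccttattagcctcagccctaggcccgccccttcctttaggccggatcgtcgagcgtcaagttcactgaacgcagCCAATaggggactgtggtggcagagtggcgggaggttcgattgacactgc
Bard1: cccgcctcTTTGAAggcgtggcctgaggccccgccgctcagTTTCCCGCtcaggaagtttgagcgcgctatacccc
The Blm stretch holds 2 CCAAT boxes in opposite directions, starting 186 and 161 bases before the RefSeq start site. That site lies inside the annotated Blm gene, which begins at 80535119, directly beside the printed stretch. The boxes are therefore nearer to the annotated gene start than these distances. The Rad54l stretch holds 1 CCAAT box, starting 50 or 51 bases before the start, as RefSeq lists a pair of neighbouring start sites. Over the full 250 bases, a CCAAT box was present in 15 of 28 members (53.6%) and in 37.5% of all genes in the table. An E2F word was present in 3 of 28 members (10.7%; Bard1, Brca2 and Chek2) and in 2.16% of all genes. A CHR word was present in 2 of 28 members (7.14%) and in 19.6% of all genes. These matches describe letters and do not show binding.

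The 39 genes were expressed over a wide range of levels. Per kilobase of exon, Usp1 had the highest median normalized count over the 24 libraries, at 136, ahead of Rad50 at 67.6, Atm at 61.6, Bard1 at 42.4 and Nbn at 41.7. USP1 strips ubiquitin from FANCD2, RAD50 and NBN belong to the MRN complex that binds broken ends, ATM is the kinase that MRN activates, and BARD1 is the partner of BRCA1. The lowest per kilobase were Atrip at 1.65, Rad51c at 3.81, Ercc1 at 5.71 and Xrcc3 at 6.34. Atrip encodes the partner of ATR, Rad51c and Xrcc3 encode proteins that work as a pair in recombination, and Ercc1 encodes the partner of the XPF nuclease. Atrip had 2 to 50 reads per library and Xrcc3 had 3 to 52, so neither was measured precisely. In 36 of 39 genes the normalized count was at least 10 in every library, and Atrip (17 of 24), Xrcc3 (20 of 24) and Rad51c (23 of 24) were the exceptions.

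Most members varied little between libraries. In 21 of 39 the highest of 24 libraries was less than 2 times the lowest. Mre11a, the nuclease of the MRN complex, ran only from 196 to 267 and the translesion polymerase Rev1 from 176 to 244. At the other end were Xrcc3, from 7.63 to 39.2, and Eme1, the partner of the MUS81 nuclease, from 11.4 to 54.4. The spread within groups (the residual SD of the log2 values) was below that of the median gene, 0.348, in 31 of 39. That median is over all genes tested, whatever their level, and genes of like level were not compared. The heat map of 39 genes and 24 libraries shows Blm turning warmer on the poly(I:C) side, and Xrcc3, Rad51b and Eme1 varying with the title ending.

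**Figure D1:**
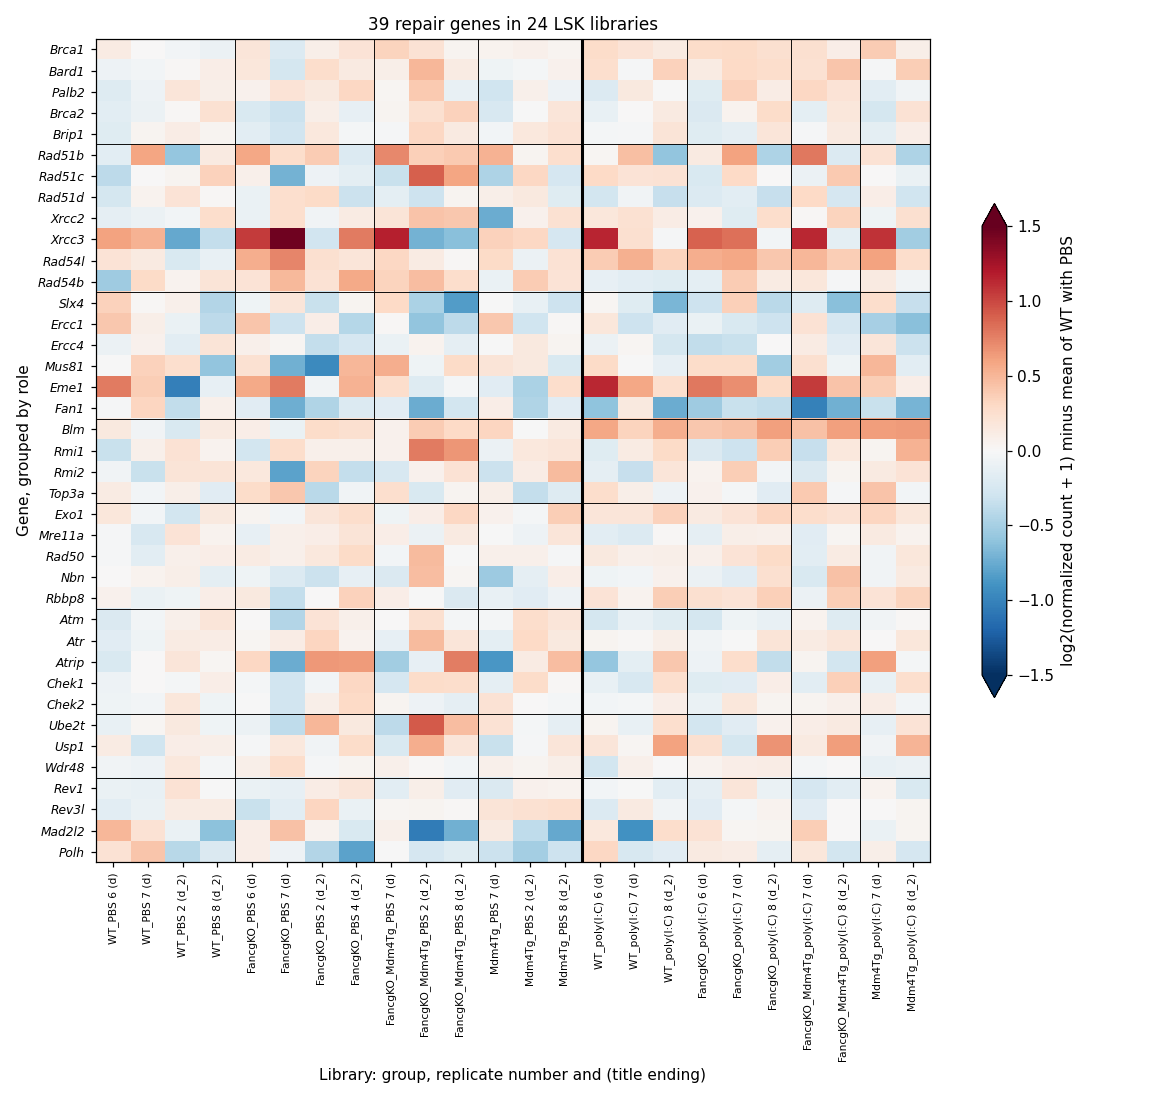
Each row is 1 of the 39 genes, grouped by role, and each column 1 of 24 libraries, labelled with group, replicate number and title ending; the thick line divides 14 PBS from 10 poly(I:C) libraries. Colour is log2(normalized count + 1) minus the mean of the 4 WT libraries with PBS, with values beyond 1.5 shown at the end colours. Blm is above 0 in all 10 poly(I:C) libraries, and Xrcc3 is lower in most libraries ending in d_2.

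The first question was whether poly(I:C) changed these genes. Blm, Rad54l and Rbbp8 rose and no member was called lower, so 3 of 39 passed (7.69%). This compares with 23.6% of all genes tested, 11.9% higher and 11.6% lower. The comparison averaged the 4 genotypes (10 poly(I:C) and 14 PBS libraries) in limma on log2(normalized count + 1), with Benjamini-Hochberg adjustment over 12628 genes at 0.05. The median log2 difference was -0.000669 over the 39 members and 0.0129 over all genes, and 19 of 39 members were positive. At an unadjusted p under 0.05 there were 6 members (15.4%), against 37.5% of all genes. The 95% interval of the difference lay within 0.5 of zero on the log2 scale for 33 of 39 members and within 1 for all 39. Sequencing depth also differed by treatment, with a median of 1540400 reads in the 14 PBS libraries and 4251221 in the 10 poly(I:C) libraries. After thinning every library to the smallest, Blm (0.46 ± 0.09, limma adjusted p = 0.00211) and Rbbp8 (0.29 ± 0.10, limma adjusted p = 0.0473) passed and Rad54l did not. LSK cells are a mixture, and fewer cells of a type cannot be told apart from less RNA per cell.

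Blm encodes a helicase that, with TOP3A, RMI1 and RMI2, takes apart the joined DNA molecules left by recombination. In WT the normalized counts were 227, 296, 258 and 291 with PBS and 397, 337 and 389 with poly(I:C). In FancgKO they were 323, 315, 286 and 248 with PBS and 354, 361 and 408 with poly(I:C). In FancgKO_Mdm4Tg they were 347, 279 and 328 against 363 and 408. Every poly(I:C) library was above every PBS library of its own genotype in these groups. In Mdm4Tg the values were 266, 332 and 294 with PBS and 413 and 416 with poly(I:C), again without overlap. The averaged log2 difference was 0.40 ± 0.07 (SE), a fold of 1.32, with a limma adjusted p of 9.37e-04. It stayed between 0.38 and 0.42 and past the threshold whichever library was left out. Within the libraries ending in d it was 0.38 ± 0.09 (limma adjusted p = 0.341, where 0% of all genes passed), and within those ending in d_2 it was 0.45 ± 0.09 (limma adjusted p = 0.00262, where 34% of all genes passed). Blm (ENSMUSG00000030528, minus strand of chromosome 7, 80454733 to 80535119) shares no exon with another annotated gene. The other 3 genes of the complex did not pass, with differences of 0.13 ± 0.11 for Top3a, 0.04 ± 0.13 for Rmi2 and -0.10 ± 0.13 for Rmi1.

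Rad54l encodes the motor protein RAD54, which drives the search for matching DNA during recombination. In WT the normalized counts were 122, 165, 157 and 133 with PBS and 187, 207 and 181 with poly(I:C). In FancgKO_Mdm4Tg they were 156, 178 and 145 against 202 and 185. These 2 genotypes did not overlap between treatments. In FancgKO the values were 169, 162, 209 and 238 with PBS and 209, 215 and 189 with poly(I:C), and in Mdm4Tg 135, 175 and 167 against 218 and 172, so both overlapped. The averaged log2 difference was 0.27 ± 0.09, a fold of 1.21 (limma adjusted p = 0.0267). Rad54l itself was lower in libraries ending in d_2, and with the ending in the fit the difference was 0.23 ± 0.06 (limma adjusted p = 0.00579). The call was lost without FancgKO_Mdm4Tg_PolyIC replicate 7 (0.25, limma adjusted p = 0.0502), Mdm4Tg_PBS replicate 2 (0.24, limma adjusted p = 0.0534) or Mdm4Tg_PolyIC replicate 7 (0.23, limma adjusted p = 0.0881). With reads thinned to the smallest library it was 0.15 (limma adjusted p = 0.301). Rad54l (ENSMUSG00000028702, minus strand of chromosome 4, 116094264 to 116123690) shares 15.4% of its exon bases with Lrrc41 on the other strand. Strand use in counting is not given in the sources used here, so reads in this stretch cannot be told apart. Lrrc41 differed by 0.16 ± 0.10 and did not pass.

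The remaining 6 members of this role, which act in the strand exchange step, did not pass. Rad51b, Rad51c, Rad51d, Xrcc2 and Xrcc3 differed by between -0.20 ± 0.17 (Rad51b) and 0.24 ± 0.29 (Xrcc3), and Rad54b, a relative of Rad54l, by -0.20 ± 0.10 (limma adjusted p = 0.154).

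Rbbp8 encodes CtIP, which works with MRE11 to trim broken ends so that recombination can begin. In WT the normalized counts were 160.2, 176, 157 and 179.9 with PBS and 194, 174 and 218 with poly(I:C). In FancgKO they were 169, 214, 186 and 131 against 198, 194 and 215, and in FancgKO_Mdm4Tg 167, 180.2 and 145 against 158 and 217. All 3 genotypes overlapped between treatments. In Mdm4Tg the values were 149, 155 and 159 with PBS and 193 and 212 with poly(I:C), without overlap. The averaged log2 difference was 0.25 ± 0.08, a fold of 1.19 (limma adjusted p = 0.0322). With the title ending in the fit it was 0.27 ± 0.07 (limma adjusted p = 0.00798). The call was the weakest of the 3. It held in 16 of 24 fits that left out 1 library and was lost, at limma adjusted p-values of up to 0.129, without FancgKO_Mdm4Tg_PBS replicate 8, FancgKO_Mdm4Tg_PolyIC replicate 8, FancgKO_PolyIC replicates 6 or 8, Mdm4Tg_PBS replicate 2, Mdm4Tg_PolyIC replicate 8, or WT_PolyIC replicates 6 or 8. The other 4 genes of end resection did not pass. Exo1, the exonuclease that extends resection, differed by 0.15 ± 0.08, Nbn by 0.10 ± 0.10, Rad50 by -0.00 ± 0.07 and Mre11a by -0.06 ± 0.07.

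**Figure D2:**
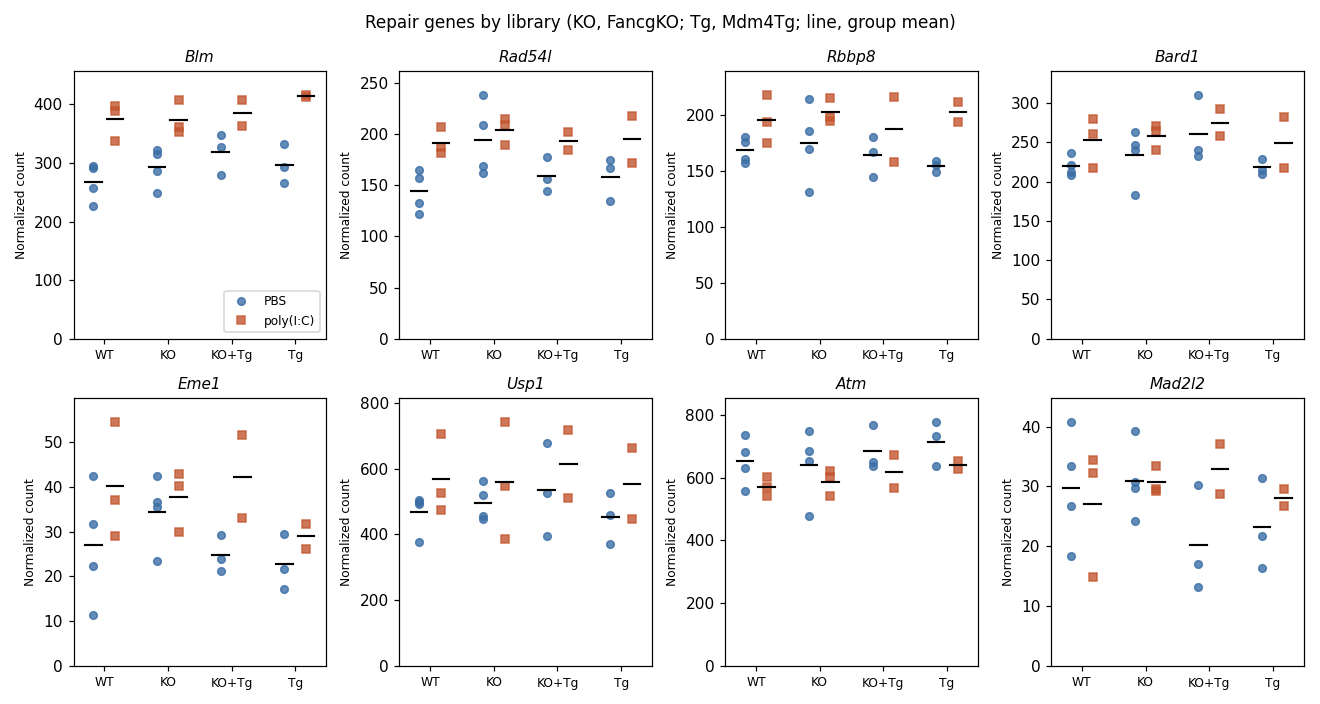
Each panel is 1 gene, with the normalized count on a linear axis from 0 against genotype; circles are PBS and squares poly(I:C) libraries, and black lines are group means. Blm separates by treatment in all 4 genotypes, Rad54l in WT and FancgKO_Mdm4Tg, Rbbp8 only in Mdm4Tg and Eme1 only in FancgKO_Mdm4Tg. Bard1, Usp1, Atm and Mad2l2 overlap in all 4 genotypes.

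BRCA1 and BARD1 form a ubiquitin ligase that promotes recombination, PALB2 links BRCA1 to BRCA2 at the break, and BRIP1 is a helicase bound to BRCA1. None of these 5 genes passed. Bard1 had the largest difference, 0.15 ± 0.08 (limma adjusted p = 0.155), with 182.9 to 310.3 (median 230.9) over the PBS libraries and 217 to 292 (median 262) over the poly(I:C) libraries. The treatments overlapped in 4 of 4 genotypes. With the title ending in the fit Bard1 reached 0.19 ± 0.06 (limma adjusted p = 0.0273). Brca1 differed by 0.14 ± 0.07 (limma adjusted p = 0.133). Its poly(I:C) libraries were above the PBS libraries in WT, FancgKO and Mdm4Tg, and overlapped them in FancgKO_Mdm4Tg. The gaps were small, with the highest PBS and lowest poly(I:C) values at 233.6 and 235.3 in WT. These values were 247.8 and 254.1 in FancgKO and 226.5 and 227.0 in Mdm4Tg. The share of all genes that separate in this way was not counted. Brca2 (-0.00 ± 0.08) and Palb2 (0.01 ± 0.09) were among the flattest of the 39.

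None of the 6 genes of the structure-specific nucleases passed, a group that cuts DNA beside crosslinks or in joined molecules, with SLX4 as the scaffold. Eme1 had the largest difference of all 39 genes, 0.47 ± 0.19, but a limma adjusted p of 0.0695. Its normalized counts were 11.4 to 42.5 (median 26.6) with PBS and 26.2 to 54.4 (median 35.0) with poly(I:C). The treatments overlapped in WT, FancgKO and Mdm4Tg and not in FancgKO_Mdm4Tg. The libraries held 6 to 93 Eme1 reads, and without WT_PBS replicate 6 it passed (0.53, limma adjusted p = 0.0272). Fan1, a nuclease recruited by ubiquitinated FANCD2, had the lowest difference, -0.31 ± 0.13 (limma adjusted p = 0.0927), and passed with the title ending in the fit (-0.34 ± 0.13, limma adjusted p = 0.0412).

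The checkpoint kinases and ATRIP, which halt the cell cycle when DNA is damaged, gave 0 calls in 5 genes. Atm, the kinase for double-strand breaks, had the largest difference of the 5, at -0.15 ± 0.08 (limma adjusted p = 0.161). Its values were 477 to 777 (median 667) with PBS and 540.1 to 672 (median 602) with poly(I:C), overlapping in all 4 genotypes. Its difference was -0.27 ± 0.08 within libraries ending in d_2 (limma adjusted p = 0.0184) and 0.00 ± 0.10 within those ending in d. Atr, Chek1 and Chek2 differed by -0.02 ± 0.07, -0.02 ± 0.10 and 0.03 ± 0.08.

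The 3 genes that put ubiquitin on FANCD2 or take it off did not pass. Usp1 was at 369 to 679 (median 495) with PBS and 386 to 741 (median 537) with poly(I:C), a difference of 0.22 ± 0.12 (limma adjusted p = 0.176) with overlap in all 4 genotypes. With the title ending in the fit it was 0.29 ± 0.08 (limma adjusted p = 0.00998). Ube2t, the E2 enzyme of the core complex, and Wdr48, the partner of USP1, differed by -0.08 ± 0.13 and -0.07 ± 0.06. Of the 4 translesion genes none passed either. Mad2l2, a subunit of polymerase zeta, had the largest difference, 0.23 ± 0.18 (limma adjusted p = 0.36), with 13.3 to 40.7 (median 28.2) against 14.8 to 37.1 (median 29.6). Within libraries ending in d it was -0.20 ± 0.24 and within those ending in d_2 0.57 ± 0.22, and neither passed.

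Fitting the title ending raised the members called with poly(I:C) from 3 to 6, 5 higher (Blm, Rad54l, Rbbp8, Bard1 and Usp1) and 1 lower (Fan1), while 34.8% of all genes passed. The share of members, 15.4%, remained below that of all genes. Within the 12 libraries ending in d no member and no other gene passed limma with Benjamini-Hochberg adjustment. Within the 12 ending in d_2, 6 members passed (15.4%), against 34% of all genes. Blm, Rad54l, Rbbp8 and Usp1 were higher, and Atm and Rad51b (-0.53 ± 0.19, limma adjusted p = 0.0469) were lower. In the libraries ending in d_2 depth did not overlap between treatments, at 949156 to 4801746 reads with PBS and at least 5491225 with poly(I:C).

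Between the title endings themselves 20 of 39 members differed, 13 higher and 7 lower in d_2 (51.3%), against 45.3% of all genes. With TMM scaling the split was 8 higher and 8 lower. Of the 20, 13 passed in every one of the 24 fits that left out 1 library, 6 of them higher and 7 lower. The matching shares of all genes with TMM scaling, left-out libraries or thinning are not given here. These counts therefore cannot be set against the background. Atr was lost with quantile scaling, Brip1 and Eme1 in the 18 libraries with low Xist, and Brip1, Eme1, Rmi1 and Polh after thinning. Xrcc3 had the largest difference, with a mean normalized count of 26.6 in d and 12.2 in d_2 and a log2 difference of -1.07 ± 0.18 (limma adjusted p = 3.63e-05). Rad51b (-0.56 ± 0.12), Eme1 (-0.52 ± 0.15), Slx4 (-0.45 ± 0.10), Polh (-0.38 ± 0.09), Top3a (-0.33 ± 0.08) and Rad54l (-0.26 ± 0.06) were also lower in d_2. Usp1 (0.39 ± 0.08), Rmi1 (0.36 ± 0.10), Chek1 (0.32 ± 0.06), Brca2 (0.29 ± 0.05), Brip1 (0.23 ± 0.05) and Atr (0.21 ± 0.05) were higher. Chek1, which encodes the kinase that ATR activates, ran from 144 to 176 in d and from 171 to 225 in d_2, with little overlap. The summed normalized count of the 39 genes was 6493 to 7109 in d and 6918 to 8008 in d_2. Median depth was 2178535 reads in d and 3441814 in d_2 over both treatments. With PBS it was 1621260 in d and 1486622 in d_2, and with poly(I:C) 2678662 in d and 7428317 in d_2. The part of depth in these differences was tested only by thinning, after which 9 of the 13 still passed.

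**Figure D3:**
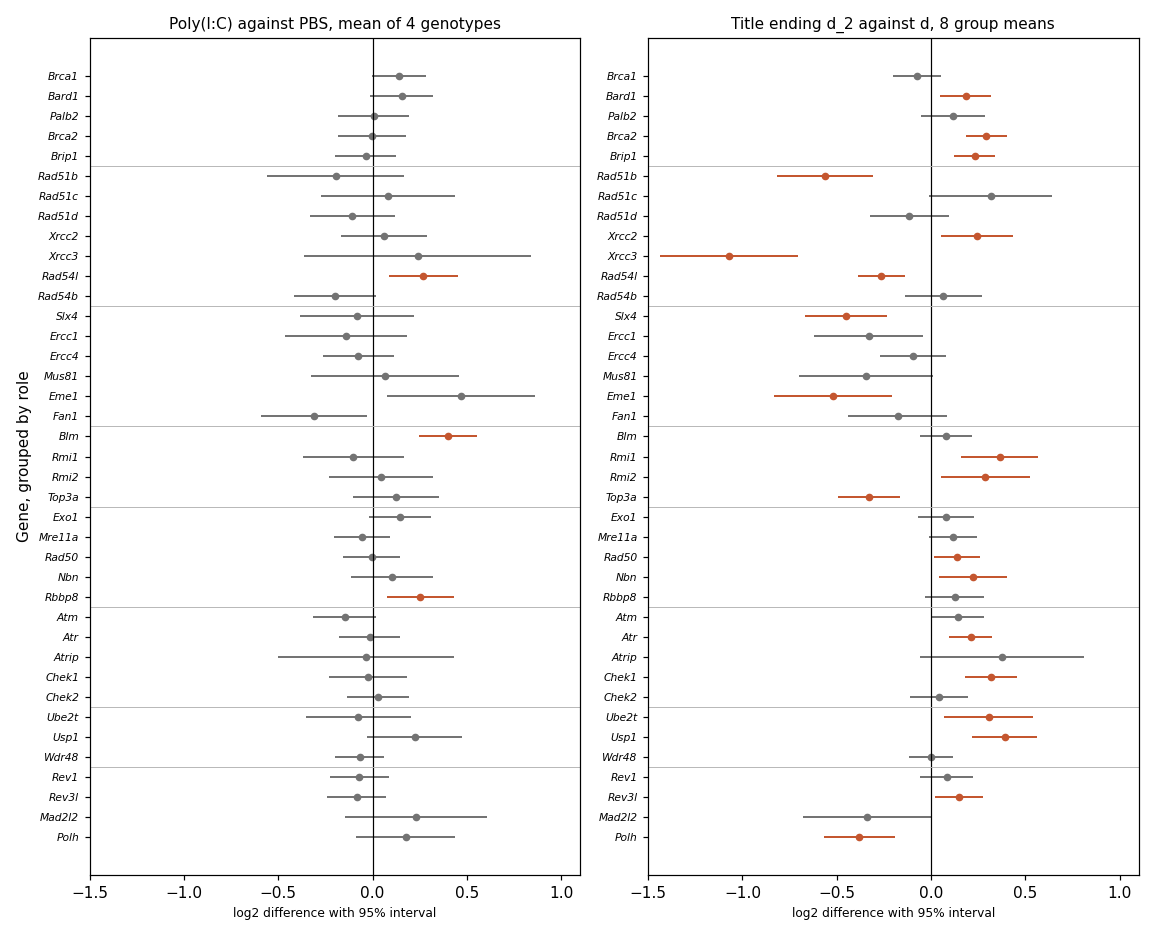
Points are log2 differences of the 39 genes with 95% intervals, grouped by role; orange marks limma adjusted p-values below 0.05. On the left, poly(I:C) against PBS averaged over 4 genotypes, Blm, Rad54l and Rbbp8 are orange. On the right, titles ending in d_2 against d with 8 group means, 20 genes are orange, with Xrcc3 at -1.07 the farthest from 0.

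The response within single genotypes was tested with fewer libraries and 0 members passed limma with Benjamini-Hochberg adjustment in any. In WT 0.0158% of all genes passed, and in FancgKO, FancgKO_Mdm4Tg and Mdm4Tg 0% did. At an unadjusted limma p under 0.05 there were 2 members in WT (5.13%, against 14.9% of all genes) and 1 in FancgKO (2.56%, against 7.24%). FancgKO_Mdm4Tg had 1 (2.56%, against 8.57%) and Mdm4Tg had 2 (5.13%, against 12.7%). The Blm differences were 0.49 ± 0.13 in WT, 0.36 ± 0.13 in FancgKO, 0.28 ± 0.16 in FancgKO_Mdm4Tg and 0.48 ± 0.16 in Mdm4Tg, with limma adjusted p-values of 0.101, 0.682, 0.62 and 0.29. The WT replicate numbers deviated together, and with the replicate number as a block 2 members passed in WT, where 6.88% of all genes did. These were Blm at 0.48 ± 0.11 (limma adjusted p = 0.0148) and Rad54l at 0.35 ± 0.10 (limma adjusted p = 0.0395). Without WT_PBS replicates 2, 7 or 8 or WT_PolyIC replicate 7 that blocked count was 1 (Blm), and it was 0 without WT_PolyIC replicate 6 or 8.

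The next question was whether loss of Fancg, an upstream member of the same pathway, changed these genes. No member passed. Averaged over 4 backgrounds, 0 of 39 were called, with 0.0158% of all genes called (0 and 0.0634% with the title ending in the fit). At an unadjusted limma p under 0.05 there were 2 members (5.13%), against 2.11% of all genes. These were Palb2, at 0.22 ± 0.09, and Rad54b, at 0.22 ± 0.10, both with a limma adjusted p of 0.9998. The median member differed by 0.02, and the extremes were Fan1 at -0.24 ± 0.13 and Eme1 at 0.26 ± 0.19. The 95% interval lay within 0.5 of zero for 35 of 39 members. For Blm it ran from -0.12 to 0.18, for Rad54l from -0.05 to 0.31 and for Rbbp8 from -0.16 to 0.18.

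For FancgKO against WT with PBS, 0 members passed and 0% of all genes did (0 and 0.00792% with the title ending in the fit). Rad54l had the smallest p, with the PBS values given above lying at 122 to 165 in WT and at 162 to 238 in FancgKO. Within each title ending, with 2 libraries in each group, every FancgKO value of Rad54l was above every WT value. The share of all genes that separate in this way was not counted. Without the ending in the fit the Rad54l difference was 0.42 ± 0.14 (limma adjusted p = 0.999), and Rad54b differed by 0.37 ± 0.17 (limma adjusted p = 0.999). These 2 members (5.13%) were the ones at an unadjusted limma p under 0.05, against 3.94% of all genes. With the replicate number as a block, 0 members and 0.0317% of all genes passed. At an unadjusted limma p under 0.05 that fit gave 2 members (5.13%), against 10.6% of all genes. With poly(I:C), FancgKO against WT gave 0 members and 0% of all genes. At an unadjusted limma p under 0.05 there were 0 members, against 0.364% of all genes (0 members and 0.998% with the replicate block). The FancgKO and WT libraries given PBS are shared with the poly(I:C) comparisons. The difference in the poly(I:C) response between Fancg-deficient and Fancg-intact libraries, an interaction term in limma, gave 0 members and 0% of all genes. At an unadjusted limma p under 0.05 it gave 0 members, against 0.792% of all genes. This term was -0.17 ± 0.14 for Blm, -0.17 ± 0.17 for Rad54l and -0.09 ± 0.17 for Rbbp8. The 95% intervals were -0.46 to 0.13, -0.52 to 0.18 and -0.44 to 0.25.

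The Mdm4 transgene was the other genetic change. MDM4 restrains p53, the transcription factor that ATM and CHK2 signalling activates. Averaged over 4 backgrounds, 0 of 39 members passed, and 0.00792% of all genes passed, which is 1 gene, Mdm4 itself. At an unadjusted limma p under 0.05 there were 0 members, against 2.57% of all genes. The members ran from -0.22 ± 0.29 (Xrcc3) to 0.18 ± 0.19 (Mus81), with a median of 0.04. FancgKO_Mdm4Tg against FancgKO with PBS gave 0 members (0.00792% of all genes). At an unadjusted limma p under 0.05 it gave 1 member (2.56%, against 4.47% of all genes), Brca2 at 0.36 ± 0.15. Mdm4Tg against WT with PBS gave 0 members (0.00792% of all genes) and 0 at an unadjusted limma p under 0.05 (2.51% of all genes). With the replicate block both member counts were again 0, with 4.66% of all genes at an unadjusted limma p under 0.05. Cdkn1a, a p53 target that stops the cell cycle, ran from 9.42 to 57.7 in PBS libraries and from 20.3 to 33.4 in poly(I:C) libraries. Its difference of 0.03 ± 0.24 is for poly(I:C) against PBS, not for the transgene. By genotype its mean with PBS was 29.4 in WT, 25.9 in Mdm4Tg, 40.4 in FancgKO and 30.3 in FancgKO_Mdm4Tg. The poly(I:C) means were 26.5, 26.8, 32.8 and 30.9 in the same order.

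**Figure D4:**
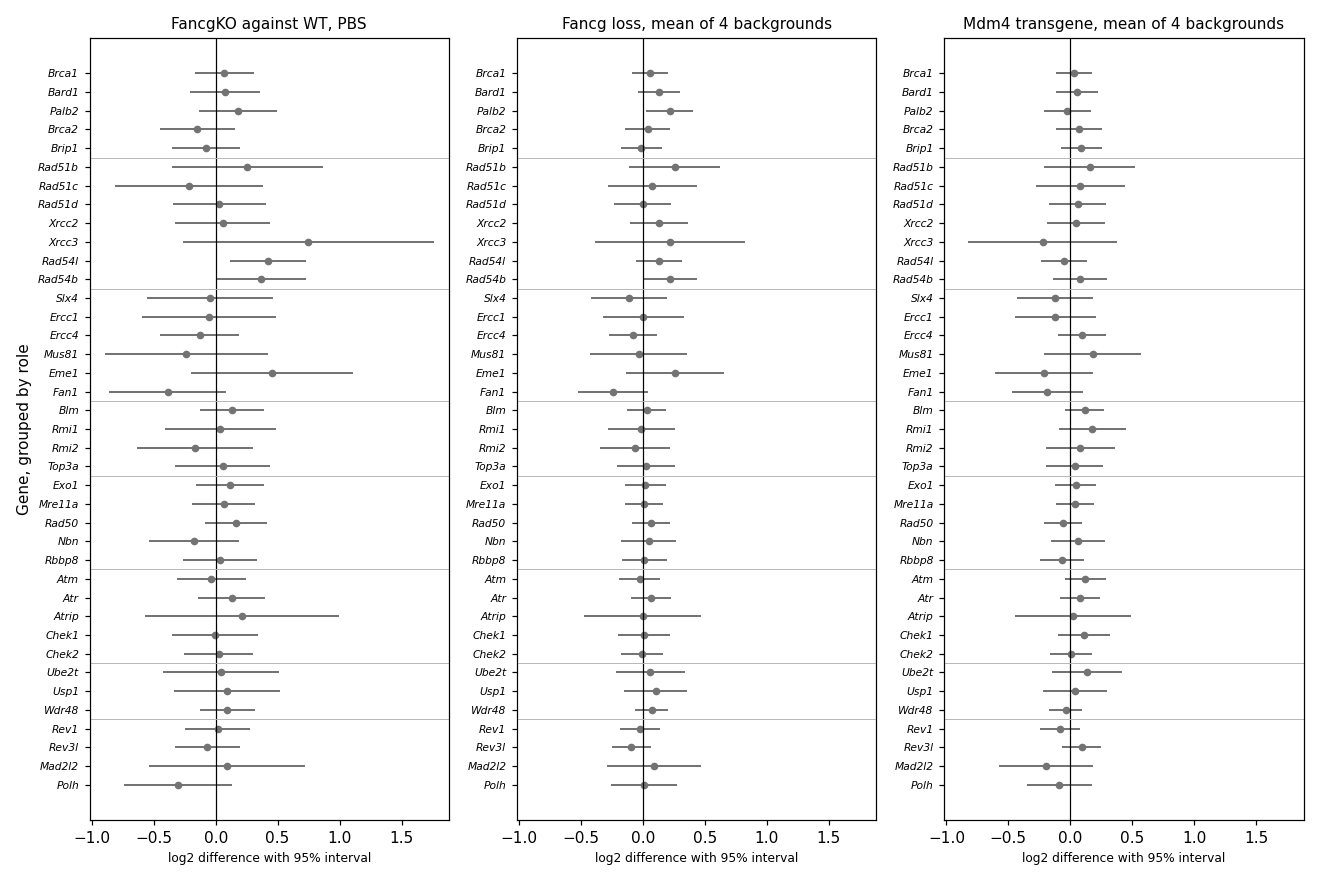
Points are log2 differences of the 39 genes with 95% intervals for FancgKO against WT with PBS, for Fancg loss averaged over 4 backgrounds and for the Mdm4 transgene averaged over 4 backgrounds. None is orange, the colour for limma adjusted p-values below 0.05; Rad54l at 0.42 in the left panel has an interval that stays above 0.

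Other genes of the pathway and of neighbouring repair routes are given from lists chosen with earlier results of these data known. Of 13 genes of the Fanconi core complex with Fancd2 and Fanci, 1 rose with poly(I:C) and 0 fell, and their median difference was 0.10. The riser was Faap24 (0.55 ± 0.17, limma adjusted p = 0.0252), which helps the core complex find DNA. Of 43 other genes of recombination and crosslink repair, 5 rose and 1 fell (median 0.12), among them the helicase Recql at 0.38 ± 0.10 and Rpa2, a subunit of the single-strand binding protein RPA, at 0.35 ± 0.12. Non-homologous end joining, which rejoins broken ends without a template, had calls in the other direction, with 0 higher and 4 lower of 11 (median -0.14). The lowest were 1500009L16Rik at -0.76 ± 0.23 and Trp53bp1, which shields ends from resection, at -0.42 ± 0.09 (limma adjusted p = 0.00369). RefSeq gives OCC-1 as another name of 1500009L16Rik, which is not known for end joining, and without it 3 of 10 fell (median -0.14). Mismatch repair had 0 of 7, nucleotide excision repair 1 higher and 2 lower of 13, and base excision repair 1 higher and 1 lower of 14. The bars of calls per list set these beside the 11.9% higher and 11.6% lower of all genes.

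Cell cycle markers were called higher with the treatment more often than all genes were, though most of them were not called. Of 31 S phase markers, none of them among the 39 genes, 10 rose and 0 fell (median 0.17). The share that rose was 32.3%, against 11.9% of all genes, and 29 of the 31 differences were positive. E2f8 rose by 0.69 ± 0.08 and Rrm2, a subunit of ribonucleotide reductase, by 0.68 ± 0.13. Of 51 markers of G2 and mitosis 16 rose and 1 fell (median 0.17). Calls in either direction made up 33.3%, against 23.6% of all genes, and 42 of the 51 differences were positive. Mki67 differed by 0.13 ± 0.09 and did not pass. The S phase markers summed to between 10794 and 12671 in PBS libraries and to between 12086 and 14805 in poly(I:C) libraries. Markers of other cell types moved too, and their counts stand beside 11.9% of all genes called higher and 11.6% called lower. Of the neutrophil markers 5 of 5 tested rose, and their sum lay between 1403 and 13281 in PBS libraries and between 5627 and 21671 in poly(I:C) libraries. Monocyte markers rose in 4 of 7 cases, with sums of 314 to 1024 in PBS and 487 to 1908 in poly(I:C) libraries. Erythroid markers rose in 4 of 4 tested cases, with sums of 24.5 to 271 in PBS and 132 to 974 in poly(I:C) libraries. Mast cell and basophil markers rose in 3 of 5 cases, with sums of 109.9 to 433 in PBS and 354 to 648 in poly(I:C) libraries. Stem and progenitor markers fell in 8 of 12 cases and rose in 1, with sums of 5773 to 9379 and 4447 to 7037. B cell markers (3 tested) and the single tested stromal gene had 0 calls, the single tested T and NK cell gene rose, and no gene of any marker list was at 0 in all libraries. The normalized count of CT010467.1, a ribosomal RNA gene, was also lower with poly(I:C), between 7978 and 157689 in PBS and between 4555 and 22432 in poly(I:C) libraries. Its difference was -2.18 ± 0.37 (limma adjusted p = 7.13e-04). With this gene as a covariate no member and 1 gene in all passed, and the Blm difference was 0.43 ± 0.12 (limma adjusted p = 0.72). The part of cell cycle, cell composition and ribosomal RNA in the changes of Blm, Rad54l and Rbbp8 was not tested further.

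**Figure D5:**
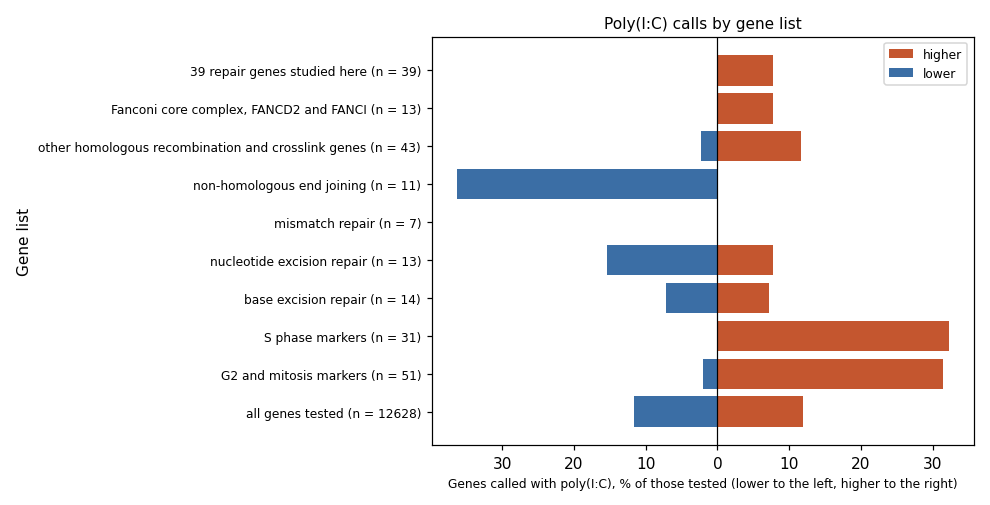
Bars give the percentage of tested genes of each list called higher (right) or lower (left) with poly(I:C) averaged over 4 genotypes, by limma at an adjusted p below 0.05; n is the number tested. The 39 genes reach 7.69% higher and 0% lower, against 11.9% and 11.6% for all genes.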

How the data were processed

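Polyadenylated RNA of sorted mouse LSK cells was made into libraries with the CATS RNA-seq kit, per the labels' protocols. The deposited values are a signal, normalized counts per gene made by the authors. STAR and mm10 are listed per the submitters' processing notes; the counter, annotation, normalization tool and strand setting are not given in the sources used here. Within a library every value was a multiple of what 1 read is worth, and dividing by it gave whole reads for 100% of values (relative tolerance 1e-06), 807686 to 8229715 per library. Groups come from the genotype and treatment labels and replicate numbers from the leading digit of the titles. The 39 genes and all lists were chosen with earlier results of these data known.

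Genes at 10 or more in at least 2 libraries (12628) were fitted as log2(normalized count + 1) in limma 3.58.1 under R 4.3.3. The fit had 1 mean for each of 8 groups and let the variance depend on the mean, with Benjamini-Hochberg adjustment at 0.05; log2 differences on this scale understate changes of low genes. The ± values are standard errors. Tests on simulated data came first. Libraries of 1 number correlated at 0.231 to 0.448 for poly(I:C) in WT, 0.218 to 0.528 and 0.392 to 0.617 for FancgKO against WT with PBS and poly(I:C), and 0.293 to 0.378 for Mdm4Tg against WT, over 3 pairs each after group means were removed. The main fit did not use this pairing. Values for these comparisons come from the main fit unless another fit, such as the replicate block, is named. Values in full are given for members that passed and for the member of each role with the largest poly(I:C) difference; from each other list at most 2 called genes with the largest differences are named. Lrrc41, CT010467.1 and members named beside these were chosen after their values were seen, as was the list without 1500009L16Rik. Other settings tried were pseudocounts, low-value filters, scaling by TMM or quantiles, array weights, no trend, the replicate block, an Xist covariate, thinning, only the groups compared, edgeR 4.0.16, DESeq2 1.42.0 and leaving out each library. Added after seeing the data were the 18 libraries with low Xist, the ribosomal RNA covariate, the block with left-out libraries, and the title ending. Gene positions and exons come from the GENCODE annotation of GRCm38; motifs were searched with python 3.11.15. One gene outside the 39 that was also to be named is not reported here.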

Additional observations from a re-analysis of the deposited data

Results flagged for a closer look

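A test for a library far from the other 3 of its group was made in the groups of 4, which are WT and FancgKO with PBS, for each of the 39 genes (78 tests, of which chance flags about 1 in 20). It singled out 2 values, both in WT with PBS. Chek2, the checkpoint kinase that acts below ATM, was at 125.9 in replicate 2 and at 107 to 109 in the other 3 libraries. Usp1, which removes ubiquitin from FANCD2, was at 376 in replicate 7 and at 492 to 504 in the other 3.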

How the results depend on the processing

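For poly(I:C) averaged over 4 genotypes 3 members passed limma. The count was 8 with array weights (20.5%, against 38.5% of all genes), 7 with the replicate block (17.9%, against 30.9%), 6 with the title ending as a covariate (15.4%, against 34.8%), 0 with the ribosomal RNA covariate (1 of all genes), 0 within titles ending in d and 6 within titles ending in d_2. Leaving out 1 library gave 1 to 5, with 1 (Blm) without Mdm4Tg_PBS replicate 2 and 5 without WT_PBS replicate 6, and 2 to 7 with the block. The blocked 7 were Brca1 (0.17, limma adjusted p = 0.0343), Bard1, Rad54l, Blm, Rbbp8 and Usp1, all higher, and Fan1, lower (-0.40, limma adjusted p = 0.0264); replicate numbers do not pair all of its groups. For poly(I:C) in WT the count moved from 0 to 3 with array weights (13.1% of all genes), 2 with the block (6.88%), 1 with DESeq2 and 1 with the title ending (2.77%), 0 to 1 with a library left out (1 without WT_PBS replicate 6) and 0 to 2 with the block and a library left out. For poly(I:C) in Mdm4Tg it moved from 0 to 1 (Blm) with array weights (4.73% of all genes) and to 1 with the block (4.85%). In the other 9 comparisons of the design it was 0 under every alternative run, and the block changed no call of a member there. Between title endings 20 members passed (51.3%, against 45.3% of all genes). It was 13 members after thinning and 15 to 20 with a library left out, where the shares of all genes are not given. Mad2l2 changed sign with the ribosomal RNA covariate (-0.0033) and within titles ending in d (-0.20), and Atm within titles ending in d (0.0045). The cause was not tested. Rad54l did not pass with quantile scaling, thinning, low-Xist libraries, the ribosomal RNA covariate or titles ending in d, nor Rbbp8 without a filter, with quantile scaling, low-Xist libraries, the ribosomal RNA covariate or titles ending in d; Blm did not pass with the ribosomal RNA covariate and within titles ending in d. Only the groups compared could not be used for averaged or interaction terms, which need all 8. Groups of 2 to 4 libraries and few reads for Atrip, Xrcc3 and Rad51c limit what could be seen.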
